A study of Mus musculus with 10 samples.

Results

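Genes that restrain the growth kinase complex mTORC1, or that hold back translation when it is off, were followed through the binding maps of the glucocorticoid receptor (GR), of lysine-specific demethylase 1 (LSD1) and of 2 histone H3 lysine 9 methylation states in mouse skeletal muscle. They are Ddit4, Ddit4l, Eif4ebp1, Eif4ebp2, Sesn1, Sesn2, Sesn3, Deptor, Tsc1 and Tsc2, which makes 10 of the 26180 genes with a curated RefSeq transcript on the genome build GRCm38. The genes were taken by name for their role, with earlier results of these data known, so their counts are a description. A peak was given to a gene when its midpoint lay in the gene body or within 30 kb of a transcription start site (TSS), an interval called the window below.

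Chromatin immunoprecipitation sequencing (ChIP-seq) had been carried out on skeletal muscle of C57BL/6J mice, 10 weeks old by the labels, either fed or after 24 h without food. The groups were GR fed, GR starved, LSD1 fed, LSD1 starved, H3K9me1 fed, H3K9me1 starved, H3K9me2 fed, H3K9me2 starved, Input fed and Input starved, with 1 library each. The strain and the tissue were shared by all groups, no transgene or drug is given in the labels, and whether the muscles of several mice were pooled is not given in the sources used here. The labels carry 2 library codes, which differ between the fed and the starved library of H3K9me1 and of H3K9me2, so condition and code cannot be told apart for these marks. With 1 library per group there is no replicate check on any difference between fed and starved muscle, no test was made, and read depth is unknown. The lists held from 6624 peaks in H3K9me2 starved to 171402 in H3K9me2 fed, and a longer list reaches more genes.

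mTORC1 is a kinase complex on the lysosome that promotes protein synthesis and growth when amino acids and insulin are present. Its brakes act at several levels. The TSC complex switches off the small GTPase Rheb that activates mTORC1, and sestrins act through the GATOR complexes. DEPTOR binds the kinase itself, and the 4E-BP proteins hold the cap-binding factor eIF4E until mTORC1 phosphorylates them. In muscle, glucocorticoids released during fasting lower protein synthesis, and Ddit4, whose product REDD1 acts on mTORC1 through the TSC complex, is a known glucocorticoid-responsive gene. LSD1 removes methyl groups from histones, and H3K9me1 and H3K9me2 are mono- and dimethylated histone H3 lysine 9.

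Nearly all of the brakes had GR in their window. In GR fed, 9 of the 10 genes had a peak, against 43.1% of all genes, and in GR starved 10 of 10 against 66.5%. LSD1 was called at 8 genes in fed muscle, against 51.1% of all genes, and at 10 in starved muscle, against 83.7%. The gene without a fed GR peak was Sesn2, and those without fed LSD1 were Tsc1 and Tsc2. The LSD1 starved list held 66332 peaks, beside 16616 in the fed list. It is far longer than the text of the study describes and may be another version, so each starved LSD1 count below rests on the list as deposited. When it was cut by fold enrichment to the length of the fed list, 6 of the 10 genes and 44.8% of all genes kept a peak, and with a q-value, the false discovery rate at which a peak is called, of at most 0.01 these were 5 of 10 and 24.0%. Whether the members differ in this from other genes active in muscle was not tested.

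The 2 histone marks moved with the length of their lists, which went from 14178 fed to 38023 starved peaks for H3K9me1 and from 171402 to 6624 for H3K9me2. H3K9me1 was called at 6 genes in fed muscle, against 38.0% of all genes, and at 8 in starved muscle, against 65.6%. H3K9me2 was called at 10 genes in fed muscle, against 95.5%, and at none of the 10 in starved muscle, against 10.2%. The H3K9me2 counts are near the share over all genes, and with the fed list cut by fold enrichment to the length of the starved one, 1 member and 22.2% of all genes kept a peak. With the starved H3K9me1 list cut to the length of the fed one, 7 members and 35.9% of all genes had a peak.

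**Figure D1:**
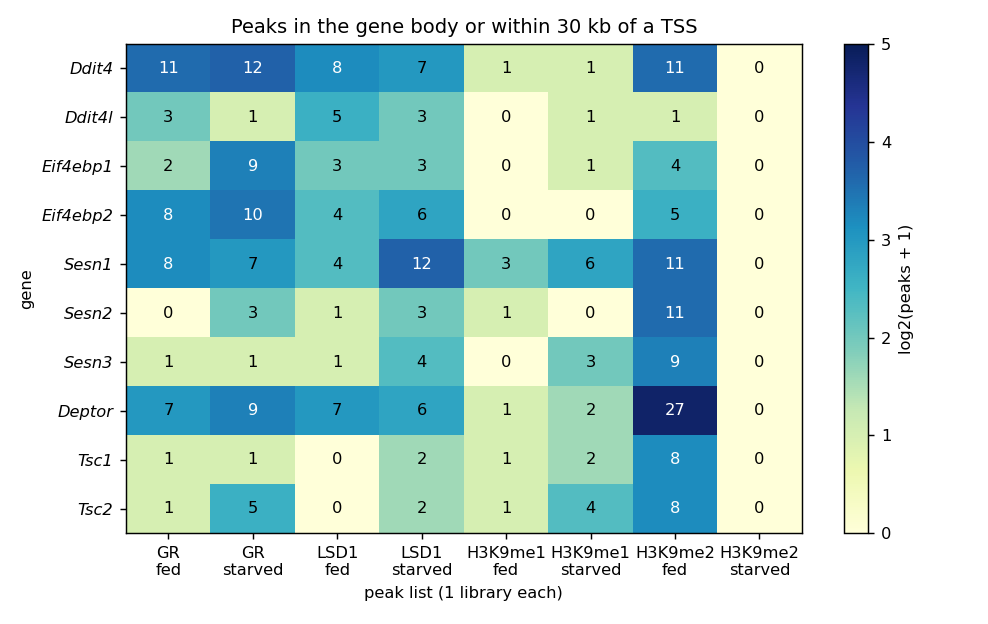
Number of peaks in the window of each gene (rows) in each of the 8 lists (columns, 1 library each), with colour on a log2(peaks + 1) scale. Ddit4 had the most GR peaks in either condition, with 11 and 12, and H3K9me2 starved was empty for all 10 genes.

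In total the 10 windows held 42 GR peaks in fed and 58 in starved muscle, 33 and 48 LSD1 peaks, 8 and 20 H3K9me1 peaks, and 95 and 0 H3K9me2 peaks. The starved GR list was also longer, with 37783 peaks beside 14108. With the starved lists cut by fold enrichment to the length of the fed ones, 34 GR and 11 LSD1 peaks of starved muscle were left. In that shortened GR starved list 8 members and 42.4% of all genes had a peak. The median gene of the list had 2.5 GR peaks in fed and 6 in starved muscle, whereas the median over all genes was 0 and 1. For LSD1 the medians were 3.5 and 3.5 beside 1 and 2 over all genes. The spread among the members was wide, from 0 to 11 GR peaks in fed muscle. Windows differed in length, from 60 kb for 5 of the genes to 137 kb for Sesn1 and 177 kb for Deptor, and 66.4% of all genes had a window of 60 kb.

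Promoters, counted from 1000 bp before to 100 bp after each TSS, of most members carried GR. A GR peak was centred in the promoter of 7 members in fed muscle, against 13.4% of all genes, and of 7 in starved muscle, against 23.3%. LSD1 was centred there in 6 members when fed, against 22.4%, and in 5 when starved, against 16.2%. Ddit4, Sesn1 and Sesn3 had a promoter peak in all 4 of these lists. H3K9me1 was found at 1 promoter in fed muscle, that of Sesn2, against 1.94%, and at 0 in starved muscle, against 3.1%. H3K9me2 marked 4 promoters in fed muscle, those of Eif4ebp2, Sesn1, Sesn2 and Sesn3, against 22.3%, and 0 in starved muscle, against 0.21%. With a q-value of at most 0.01, 4 members kept a promoter peak in GR fed, where 8.09% of all genes did. With at most 1e-05 there were 0 in GR fed, where 1.32% of all genes did, and 1 in GR starved, where 1.17% did.

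**Figure D2:**
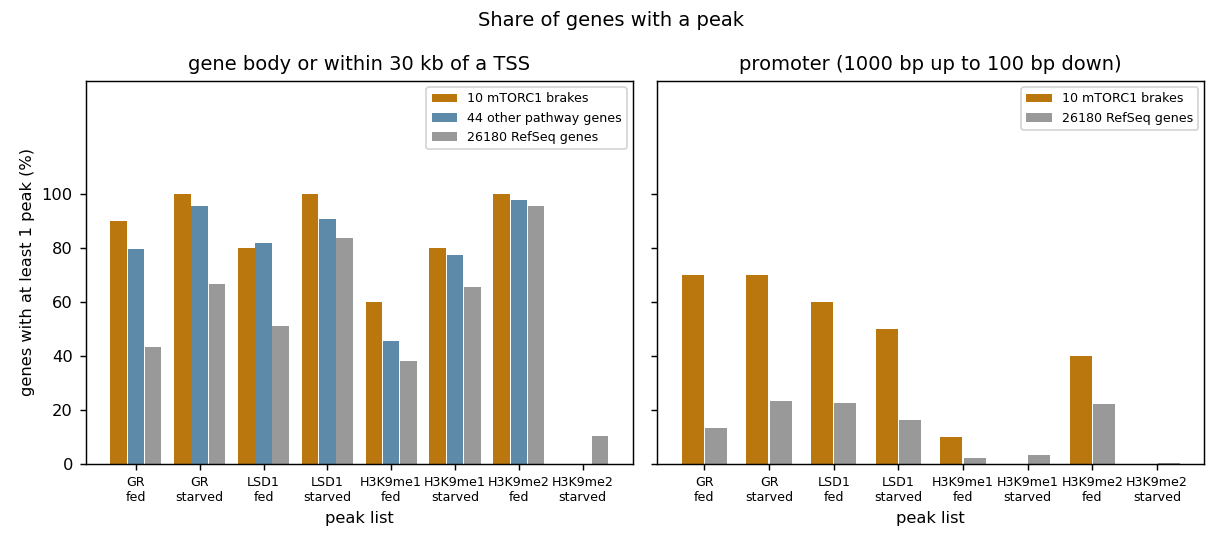
Percent of genes with at least 1 peak, in the window (left) and in the promoter (right), for the 10 mTORC1 brakes, 44 other genes of the pathway (left panel) and 26180 RefSeq genes, per list. Some of the 44 also act as brakes. The bars of the brakes stand above those of all genes in each GR and LSD1 list, and no bar of the brakes is seen for H3K9me2 starved.

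Fold enrichment, the ratio of ChIP to input signal that the peak caller gave each peak, singled out the same 4 genes for GR in both conditions. A GR peak of at least 5-fold lay in the windows of Ddit4, Eif4ebp1, Eif4ebp2 and Sesn1, against 7.17% of all genes in fed and 3.37% in starved muscle. An LSD1 peak of at least 5-fold was present at 3 genes in fed muscle, against 5.77%, namely Ddit4, Ddit4l and Eif4ebp1. In starved muscle it was present at 2, against 1.2%, namely Ddit4 and Deptor. The median fold enrichment of the member peaks was near that of the whole list, with 3.42 beside 3.29 in GR fed and 2.88 beside 2.7 in GR starved.

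Ddit4 (chr10:59949675-59951770, minus strand), the gene of REDD1, had 11 GR peaks in fed muscle, and 46 of the 26180 genes (0.176%) had as many or more. It had 12 GR peaks in starved muscle, 8 LSD1 peaks when fed and 7 when starved. No other TSS lay in its 60 kb window, although the outermost peaks, from the site 26.9 kb upstream on, were nearer to the TSS of Ascc1. Joining GR and LSD1 peaks that overlapped by at least 1 bp gave 17 sites, of which 4 were called in all 4 GR and LSD1 lists and 7 in 1 list. The sites in all 4 lists were the promoter and 3 distal sites, 18.4 kb, 22.6 kb and 26.9 kb upstream, the last of them a chain of neighbouring peaks.

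The sequences below are the bases that all 4 peaks shared at the promoter and at the site 18.4 kb upstream, and the bases around the response element of the site 22.6 kb upstream, since these sites carried GR and LSD1 in both conditions. They are written in the direction of Ddit4 transcription, the minus strand of GRCm38, at chr10:59951782-59951889, chr10:59969958-59970043 and chr10:59974261-59974299, and none lies in the gene. Capitals mark the half-sites of the glucocorticoid response element (GRE), searched on both strands as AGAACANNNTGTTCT.
Ddit4 promoter: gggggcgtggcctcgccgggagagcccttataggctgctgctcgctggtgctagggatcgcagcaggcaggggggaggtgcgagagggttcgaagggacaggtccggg
Ddit4 18.4 kb upstream: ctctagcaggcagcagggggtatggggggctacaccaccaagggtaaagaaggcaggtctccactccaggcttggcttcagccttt
Ddit4 22.5 kb upstream: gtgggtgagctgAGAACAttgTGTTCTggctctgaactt

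At the Ddit4 promoter site, GR had a fold enrichment of 3.39 in fed and 3.31 in starved muscle. LSD1 had 3.89 when fed and 5.1 when starved, the highest LSD1 value of the gene in starved muscle. This was the only LSD1 site of the 10 genes, among those called in both conditions, with the higher value in starved muscle. The fed LSD1 peak was 517 bp long and the starved one 108 bp, and fold enrichment was not corrected for length. The shared 108 bases were 70.4% G+C with 8 CG dinucleotides, and held no GRE with up to 2 mismatches.

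The distal sites were stronger for GR. The site 22.6 kb upstream (chr10:59973787-59974957) had GR at 8.58 in fed and 6.68 in starved muscle and LSD1 at 5.23 and 3.49. Its GRE matched in all 12 fixed letters and lay inside both GR peaks and the fed LSD1 peak, whereas the starved LSD1 peak, 59 bp long, did not reach it. The site 18.4 kb upstream (chr10:59969615-59970821) had GR at 7.6 and 6.6 and LSD1 at 4.1 and 3.25. Neither GR nor LSD1 was higher in the starved than in the fed library at these 2 sites. The interval 26.9 kb upstream (chr10:59977811-59979601) was a chain of peaks that did not all coincide. A starved GR peak of 5.36 overlapped 2 fed GR peaks, of 6.72 at 27.6 kb and 3.0 at 26.3 kb upstream. The fed LSD1 peak (4.17) overlapped the starved GR peak and neither of the fed ones, and the starved LSD1 peak (3.31) overlapped the starved GR peak and the fed GR peak of 6.72. Neither this interval nor the site 18.4 kb upstream held a GRE with up to 2 mismatches. Looser matches were not searched, and the study reports upstream Ddit4 elements that depart from the consensus GRE.

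Other GR sites of Ddit4 moved in either direction. A site 8.15 kb downstream of the TSS, beyond the end of the gene, had GR at 3.25 when fed and 4.64 when starved, with LSD1 at 3.8 in fed muscle alone. A site 21 kb upstream had GR at 4.35 when fed and 2.76 when starved, again with LSD1 (4.34) in fed muscle alone. Of the 11 H3K9me2 peaks of fed muscle in the window, 5 overlapped a GR or LSD1 peak, all outside the promoter. H3K9me1 had 1 peak in each condition, 15.5 kb downstream at 3.7 in fed and 4.31 kb downstream at 4.4 in starved muscle, and neither overlapped GR or LSD1.

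**Figure D3:**
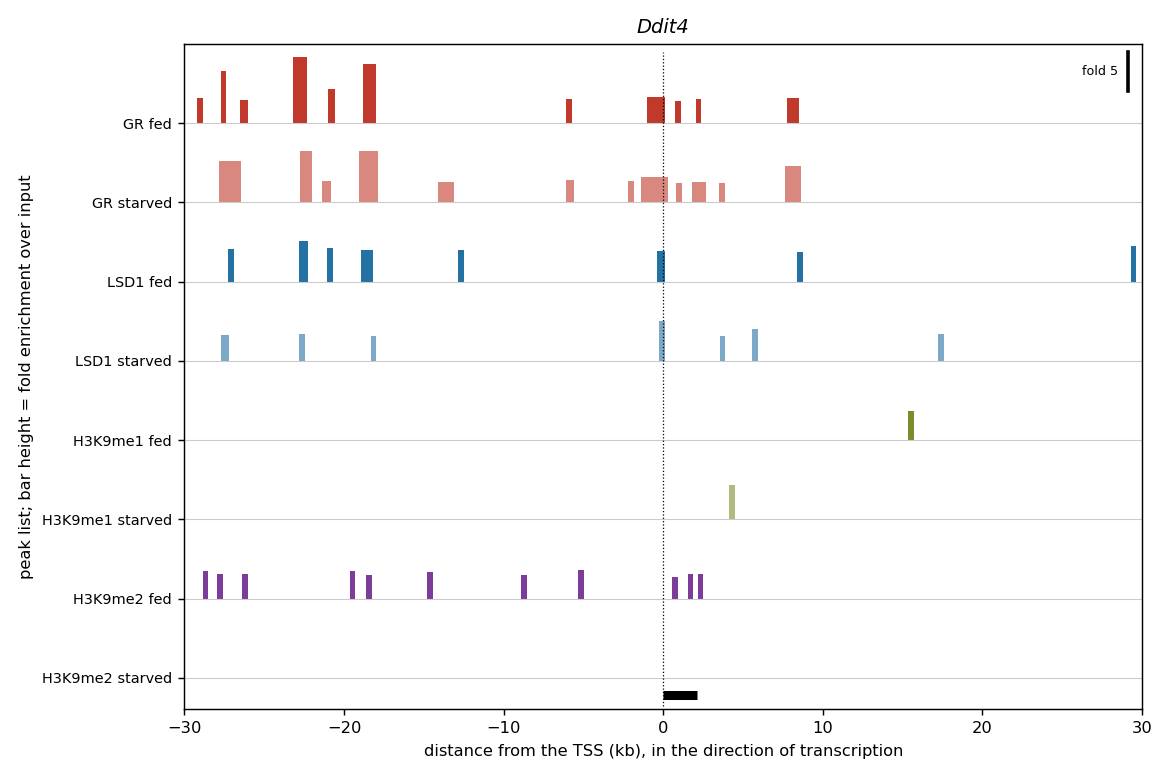
Peaks of the 8 lists along the Ddit4 window by distance from the TSS (dotted line) in kb, with bar height as fold enrichment (scale bar, 5-fold), the gene as a black bar, and bars of short peaks widened to be visible. The tallest fed GR bars stand 18.4, 22.8 and 27.6 kb upstream, of which those at 18.4 and 22.8 kb have an LSD1 bar below them in both conditions, and the H3K9me2 starved track is empty.

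Genes with a binding pattern close to that of Ddit4 were ranked by the sum, over the 8 lists, of the absolute differences in log2(peaks + 1). The 5 nearest of 26177 genes were Srl (0.978), Ptges2 (1.15), Arrdc2 (1.35), Ftl1 (1.47) and Rn4.5s (1.51), where the median gene stood at 12. Srl had 8 and 10 GR peaks and 9 and 8 LSD1 peaks in fed and starved muscle. None of the other 9 brakes was among the 5.

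Ddit4l (chr3:137623672-137628332, plus strand) encodes REDD2, the relative of REDD1, and had fewer GR peaks. There were 3 GR peaks in fed and 1 in starved muscle, and 5 and 3 LSD1 peaks, with no site in all 4 lists. The strongest site for LSD1 was intergenic, 17.8 kb downstream of the TSS (chr3:137641317-137641712). It had GR at 3.63 and LSD1 at 6.39 in fed muscle, the highest LSD1 value of the 10 genes. In starved muscle no GR peak was called there, and LSD1 was at 3.16, in a peak that overlapped only the end of the fed LSD1 peak. A second site 19.1 kb downstream carried GR (3.73, the highest GR value of the gene) and LSD1 (3.94) in fed muscle alone. At the start of the gene a GR peak of 2.66 appeared in starved muscle, over a fed LSD1 peak of 4.08, and a starved LSD1 peak of 4.27 lay at the edge of the promoter.

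The products of the 4E-BP genes block cap-dependent translation when mTORC1 is off. The highest GR value of the 10 genes was at Eif4ebp2 in fed and at Eif4ebp1 in starved muscle. Eif4ebp1 (chr8:27260327-27275656, plus strand), the gene of 4E-BP1, had 2 GR peaks in fed and 9 in starved muscle, with 3 LSD1 peaks in each. Both fed peaks lay inside the gene and were called again in starved muscle. The site 0.694 kb downstream of the TSS had GR at 6.45 and 6.3 and LSD1 at 5.2 and 3.68 in fed and starved muscle. The site 5.49 kb downstream, in an intron, had GR at 4.12 when fed and 8.24 when starved, with no LSD1 peak in either condition. The ratio of 2.0 was the largest among the GR pairs of the members, between a fed peak of 129 bp and a starved one of 416 bp. The 7 further starved peaks lay between 2.54 and 3.46, so that the gain in number was made of weaker peaks. The promoter of Eif4ebp1 held an LSD1 peak of 4.76 in fed muscle and no centre of a GR peak.

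Eif4ebp2 (chr10:61432497-61452669, minus strand), the gene of 4E-BP2, had 8 GR peaks in fed muscle, a number reached by 0.703% of all genes, and 10 in starved muscle. The site 13.0 kb upstream (chr10:61465014-61466291) had GR at 10.4 when fed, the highest value of the 10 genes, and at 8.21 when starved, and no LSD1 peak in either condition. A site 15.5 kb upstream had GR at 6.08 and 3.58, also without LSD1. Both were nearer to the TSS of Lrrc20 than to that of Eif4ebp2, so the gene they belong to is uncertain. The promoter had GR at 2.71 and 2.48 and LSD1 at 3.98 in fed muscle alone. The 2 sites called in all 4 lists, 26.2 kb downstream and 23.5 kb upstream, were nearest to Nodal and Lrrc20.

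The sequences below are the bases shared by the fed and starved GR peaks at the strongest site of Eif4ebp2 (chr10:61465116-61465383, minus strand) and at the site of Eif4ebp1 with the largest starved over fed ratio (chr8:27265671-27265799, plus strand, intron), each in the direction of the gene. They are in lower case throughout because no GRE with up to 2 mismatches was found in them.
Eif4ebp2 13.0 kb upstream: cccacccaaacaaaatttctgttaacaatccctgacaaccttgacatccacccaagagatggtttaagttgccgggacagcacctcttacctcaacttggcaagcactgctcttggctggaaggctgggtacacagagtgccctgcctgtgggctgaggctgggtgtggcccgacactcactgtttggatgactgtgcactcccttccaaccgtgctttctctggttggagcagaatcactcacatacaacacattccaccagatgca
Eif4ebp1 5.49 kb downstream: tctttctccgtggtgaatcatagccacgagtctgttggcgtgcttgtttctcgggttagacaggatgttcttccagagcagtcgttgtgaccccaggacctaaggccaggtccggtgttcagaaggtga

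The sestrins, stress-induced proteins that lower mTORC1 activity, differed from each other. Sesn1 (chr10:41810574-41908436, plus strand) had 8 GR peaks in fed and 7 in starved muscle, and 4 and 12 LSD1 peaks, in a window that spans 2 TSSs. GR and LSD1 were called in both conditions at its upstream promoter, at its downstream promoter and at a site 6.53 kb past the downstream TSS. That last site (chr10:41893606-41894338) was the strongest, with GR at 6.31 when fed and 6.97 when starved and LSD1 at 4.05 and 3.37. A site 2.33 kb past the same TSS had GR at 5.99 and 4.31 without LSD1. Of the 12 starved LSD1 peaks, 9 were at sites of no other list, with fold enrichments of up to 4.27.

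The downstream promoter of Sesn1 had GR at 2.89 and 3.47 and LSD1 at 4.14 and 3.91 in fed and starved muscle. The upstream promoter is shared with Cep57l1, whose TSS was the nearest, and had LSD1 at 4.24 and 3.2. In fed muscle it had 2 GR peaks, of 2.66 at 0.614 kb upstream and of 3.24 at 0.098 kb downstream of the Sesn1 TSS, and in starved muscle 1 peak of 3.05 overlapped both. It held 2 exact copies of the nuclear respiratory factor 1 (NRF1) word GCGCATGCGC, 661 and 638 bp from the Sesn1 TSS and 13 bases apart, the only exact copies in GR or LSD1 peaks of the 10 genes. Both copies lay in the fed GR peak of 2.66, whose ratio of starved to fed fold enrichment was 1.15, and not in that of 3.24. The fed LSD1 peak of this promoter held neither copy, and the starved one held the copy at 638 bp. The word occurred in 0.632% of all GR peaks of fed muscle. It was also in 0.971% of 32851 RefSeq promoter windows of 250 bases before to 50 after a gene start. Such windows do not reach the copies at Sesn1, and none of the 9 windows of members held the word. The stretch with both copies in capitals is shown because these were the only exact copies. It comes from chr10:41809896-41809952, plus strand, where no transcript lies.
Sesn1 upstream promoter: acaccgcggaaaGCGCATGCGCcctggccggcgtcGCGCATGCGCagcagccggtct

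Sesn2 (chr4:132492804-132510456, minus strand) was the member without a GR peak in fed muscle. In starved muscle it had 3, all weak, with 2.68 in the promoter, 2.58 at 5.13 kb upstream and 2.96 at 22.9 kb upstream, the last nearest to Atpif1. LSD1 had 1 peak in fed muscle, at 3.61 over the same site 5.13 kb upstream, and 3 in starved muscle between 3.24 and 3.44. Sesn3 (chr9:14276301-14326134, plus strand) had 1 GR peak in each condition, in the promoter, at 2.82 and 2.93. LSD1 was called at the same place at 4.41 and 3.59, and the 3 further LSD1 peaks of starved muscle were not shared with GR. Its promoter also held 2 H3K9me2 peaks in fed muscle, at 4.18 and 3.5.

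Deptor (chr15:55112317-55259273, plus strand), whose product binds and inhibits mTOR, had 7 GR peaks in fed and 9 in starved muscle and 7 and 6 LSD1 peaks, over the longest of the 10 windows. Without the gene body, within 30 kb of its TSSs, 4 fed GR peaks were left, a number reached by 4.92% of all genes. There were also 5 starved GR peaks, 3 fed and 2 starved LSD1 peaks. Ddit4 kept 11 fed GR peaks (0.0573%), and Eif4ebp2 and Sesn1 kept 8 each (0.328%). Sesn1 and Deptor have 2 TSSs each, so even without the gene body their intervals are longer than those of Ddit4 and Eif4ebp2. At the upstream TSS of Deptor, a GR peak of 3.46 in fed muscle was centred 111 bp downstream, just past the promoter, and one of 2.96 in starved muscle 56 bp downstream, with LSD1 at 3.8 in fed muscle alone. The fed GR peak centred in a Deptor promoter had a fold enrichment of 3.5 and lay 903 bp before the downstream TSS, where no starved GR peak and no LSD1 peak was called. The highest GR value was in an intron 44.8 kb past the downstream TSS, 4.58 when fed and 3.47 when starved, with LSD1 at 4.44 in fed muscle. An intronic site 98.5 kb past that TSS was in all 4 lists, with GR at 3.13 and 2.97 and LSD1 at 4.54 and 3.23, and Col14a1 had the nearest TSS. The highest starved LSD1 value of the 10 genes, 5.3, was 25.7 kb upstream in the neighbour Dscc1 and overlapped no GR peak. Deptor also had the most H3K9me2 peaks in fed muscle, 27, of which 2 overlapped GR or LSD1.

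**Figure D4:**
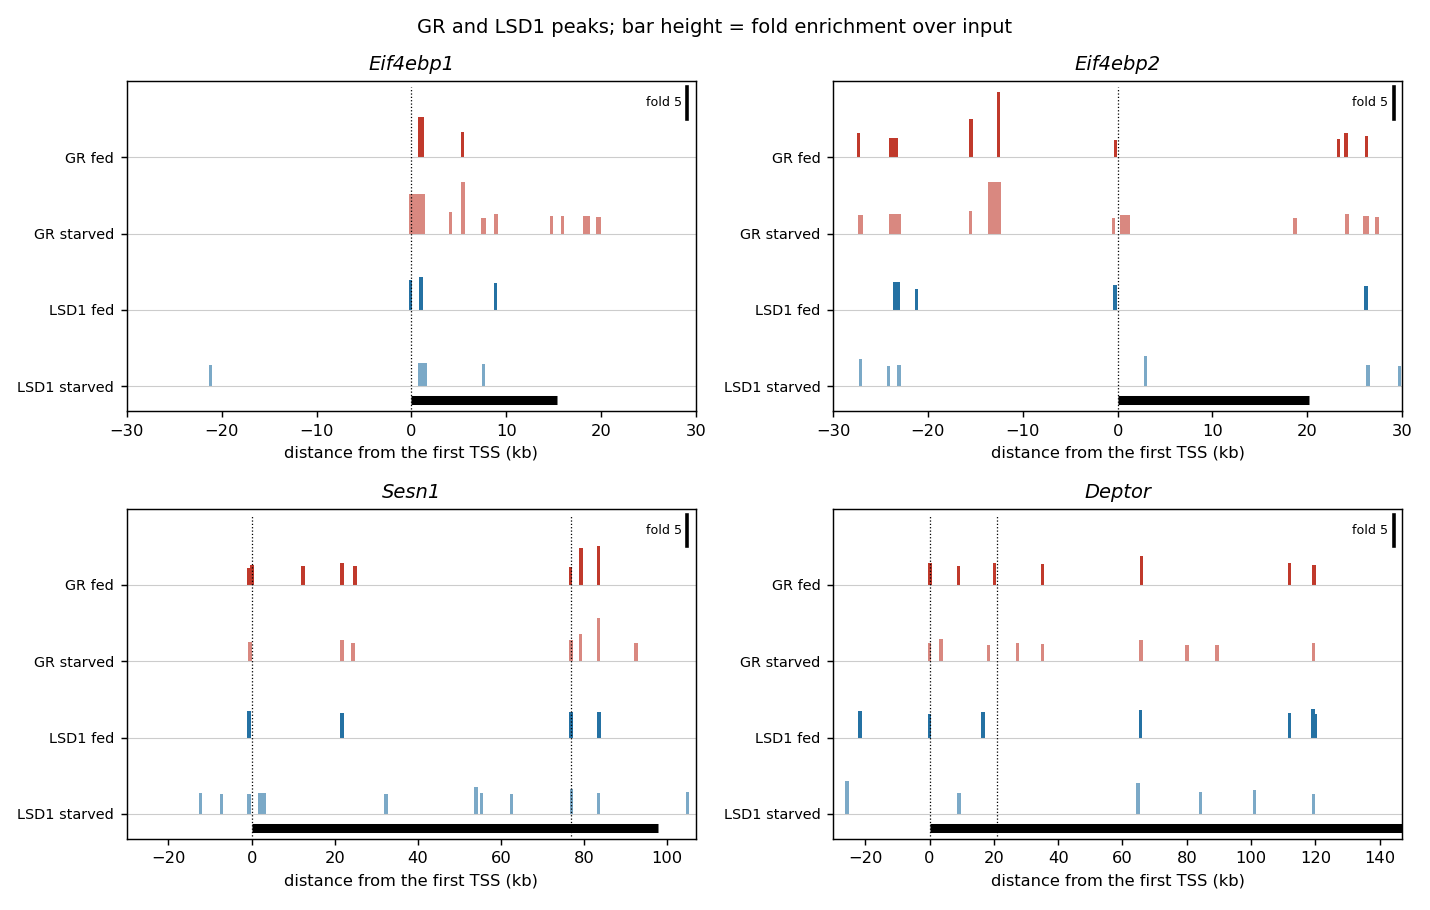
GR and LSD1 peaks of Eif4ebp1, Eif4ebp2, Sesn1 and Deptor by distance in kb from the first TSS (dotted lines, TSSs), with bar height as fold enrichment (scale bar, 5-fold), the gene as a black bar, and bars of short peaks widened. The intronic GR bar of Eif4ebp1 near 5.49 kb is taller in the starved track, and the GR bars of Eif4ebp2 13.0 and 15.5 kb upstream have no LSD1 bar.

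The TSC genes, which encode the scaffold and the GTPase-activating subunit of the complex that turns Rheb off, had 1 GR peak each and no LSD1 peak in fed muscle. Tsc1 (chr2:28641233-28691172, plus strand) had 1 GR peak in each condition, at 2.71 and 2.67, both in the promoter. LSD1 had a promoter peak of 3.31 in starved muscle. Tsc2 (chr17:24595816-24632627, minus strand) had 1 GR peak in fed muscle, at 3.86 in the promoter and nearest to the TSS of Nthl1, and it was not called in starved muscle. The 5 starved GR peaks of Tsc2, a number reached by 18.5% of all genes, lay between 2.54 and 2.82 at other places, and its 2 starved LSD1 peaks overlapped none of them.

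Across the members, GR sites of fed muscle were mostly found again in starved muscle. Of the 42 fed GR peaks 31 were overlapped by a starved GR peak, a share of 73.8% beside 65.8% over the list. In the other direction 29 of 58 starved GR peaks were overlapped by a fed one, 50% beside 24.5% over the list. The ratio of starved to fed fold enrichment in these 31 pairs ranged from 0.589 to 2.0 with a median of 0.913, beside 0.877 over 9287 pairs of the list. It was above 1 in 7 pairs, 2 at Ddit4, 3 at Sesn1 and 1 each at Eif4ebp1 and Sesn3, where 1 of those of Ddit4 and 1 of those of Sesn1 shared its starved peak with a neighbouring fed peak. For LSD1, 12 of 33 fed peaks were overlapped by a starved one (36.4% beside 23.1% over the list) and 12 of 48 starved peaks by a fed one (25% beside 5.85%). The median ratio of the LSD1 pairs was 0.774, beside 0.853 over the list, and it was above 1 in 1 pair, the Ddit4 promoter. The peaks of a pair could differ in length, and whether this shifts the ratios was not tested.

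**Figure D5:**
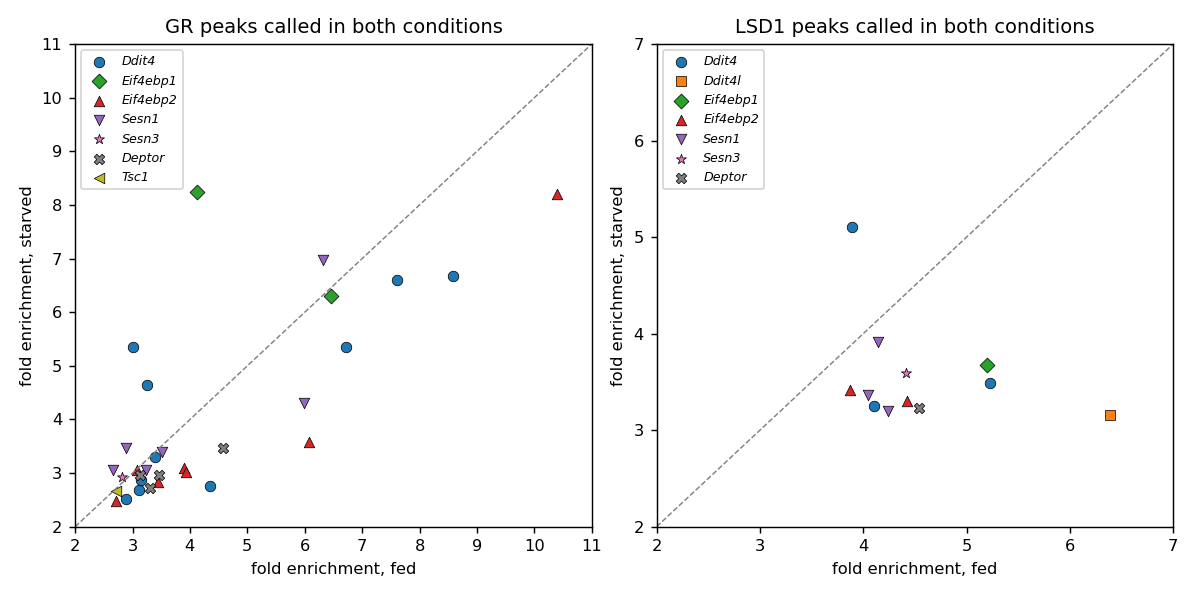
Fold enrichment in starved (y) against fed (x) muscle for GR (left, 31 pairs) and LSD1 (right, 12 pairs) peaks that overlapped between conditions, by gene, with the dashed line of equal values. The Eif4ebp1 point at 4.12 and 8.24 stands farthest above the line, and in the LSD1 panel the Ddit4 promoter at 3.89 and 5.1 is the point above it.

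GR and LSD1 shared sites at most of the genes. A GR peak overlapped by an LSD1 peak by at least 1 bp was present in the windows of 7 members in fed muscle, against 29.5% of all genes, and of 7 in starved muscle, against 27.7%. Ddit4, Eif4ebp1, Eif4ebp2, Sesn1, Sesn3 and Deptor were in both sets, with Ddit4l in fed and Tsc1 in starved muscle. By peaks, 20 of 42 fed GR peaks (47.6%) were overlapped by LSD1, where the list had 48.3%, and 16 of 58 starved ones (27.6%), where the list had 14.7%. Of the LSD1 peaks, 21 of 33 in fed muscle (63.6%) and 16 of 48 in starved muscle (33.3%) were overlapped by GR, beside 42.8% and 9.14% over the lists. In starved muscle these shared sites were weakly called, and with q-values of at most 0.01 in both lists 2 members kept 1, as did 5.47% of all genes. Of the 106 sites formed by the GR and LSD1 peaks of the 10 genes, 12 were in all 4 lists and 68 in 1. The 12 were 4 at Ddit4, 3 at Sesn1, 2 at Eif4ebp2 and 1 each at Eif4ebp1, Sesn3 and Deptor. Such sites were not counted over all genes, so the number cannot be called high or low. None of the 12 had q-values of at most 0.01 in all 4 lists. In LSD1 starved only the Ddit4 promoter site did (1.25e-07), and its fed LSD1 peak had 0.0101.

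GRE-like sequences were found in few of these peaks. With at most 1 mismatch in the 12 fixed letters, 1 of 42 fed GR peaks and 1 of 58 starved ones held a match, both over the exact GRE of Ddit4. Over the lists the share was 2.17% in fed muscle (exact 95% binomial interval 1.93 to 2.42, counting error only) and 0.712% in starved muscle (0.63 to 0.802). With up to 2 mismatches 4 peaks of each list matched, where the fed list had 9.75% and the starved list 4.33%. The matches with 2 mismatches in peaks above 5-fold are shown in the direction of their gene with 12 bases on either side, and capitals mark the half-sites. They lie at chr10:59974696-59974734 (minus strand, intergenic), chr8:27261097-27261135 (plus strand, intron) and chr10:61468135-61468173 (minus strand, intergenic).
Ddit4 22.9 kb upstream: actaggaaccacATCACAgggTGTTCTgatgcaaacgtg
Eif4ebp1 0.789 kb downstream: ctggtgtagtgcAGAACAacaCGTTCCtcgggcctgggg
Eif4ebp2 15.5 kb upstream: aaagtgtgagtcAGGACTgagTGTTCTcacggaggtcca

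Counted from 1 at the 5′ end of the GRE as printed, with the GRE base first, the differences were G2T and A3C at Ddit4, T10C and T15C at Eif4ebp1, and A3G and A6T at Eif4ebp2. The mismatches at Ddit4 and Eif4ebp2 fell in the left half-site and those at Eif4ebp1 in the right half-site. None of 9 RefSeq promoter windows of 8 members held a GRE with up to 1 mismatch, whereas 0.164% of all such windows held one.

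The promoters of the members had a higher ratio of observed to expected CpG than the median gene, by a small margin at some. For genes with several TSSs the promoter with the highest ratio was taken. The ratio ranged from 0.427 at Ddit4l to 0.781 at Sesn1, beside a median of 0.415 over all genes. In G+C share the Deptor promoter, with 46.4%, was below the median of 49.9%, and the other members were above it. Ddit4 (0.632), Eif4ebp2 (0.693), Sesn1 (0.781), Sesn3 (0.647) and Tsc2 (0.63) were above 0.6, as were 30.4% of all genes. These 5 each had a GR promoter peak in fed muscle, and so did Deptor (0.44) and Tsc1 (0.55).

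Overlap of the marks with GR and LSD1 peaks was counted at the members alone. The share over the whole mark lists was not computed, so these counts cannot be called high or low. Of the 95 H3K9me2 peaks of fed muscle, 16 overlapped a GR or LSD1 peak of either condition. None of the 8 H3K9me1 peaks of fed muscle and 1 of the 20 of starved muscle did so, the last at Ddit4l 18.0 kb downstream, over the starved LSD1 peak. In H3K9me1 fed 1 of 8 member peaks had a q-value of at most 0.01, beside 40.6% of the list. In H3K9me1 starved it was 12 of 20, beside 44.8%, and in H3K9me2 fed 15 of 95, beside 20.9%.

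Most of the other genes of the pathway, a list of 44, also had GR and LSD1 in their window. The list held a further 4E-BP gene and a TSC partner, so it is not a set without brakes. In GR fed 35 of 44 had a peak (79.5%) and in GR starved 42 (95.5%), with 36 (81.8%) and 40 (90.9%) for LSD1. Their median gene had 2 GR peaks in fed and 4 in starved muscle. Over all genes the shares with a peak were 43.1% and 66.5% for GR and 51.1% and 83.7% for LSD1. All 4 mTORC1 subunits and all 8 output genes had GR in both conditions. Of the 14 genes of Rheb, the Rag GTPases and their lysosomal anchor, 9 had it in fed and 12 in starved muscle. It was at 7 and 10 of the 10 genes of GATOR and amino acid sensing, and at 7 and 8 of the 8 upstream kinases and TSC partner. Genes with a GR peak of at least 5-fold in both conditions were Mtor, the kinase itself (7.6 and 5.38), Seh1l of the GATOR complex (6.82 and 5.14), Rps6kb1, the S6 kinase (6.3 and 5.48), and Tfeb, a transcription factor that mTORC1 keeps out of the nucleus (8.73 and 8.8).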

How the data were processed

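ChIP-seq libraries of fed and 24 h starved mouse skeletal muscle were grouped by their labels. Reads had been mapped by the authors to mm10 (GRCm38) and broad peaks called per library with MACS2 against input. The deposited lists gave each peak's fold enrichment as a ratio and −log10 of its p-value and q-value. The largest q-value of any peak was 0.0998, and the input libraries entered only through that calling. The methods name a blacklist made for the human genome. The LSD1 starved list used here is far longer than the text of the study describes and may be another version. That text also gives another age of the mice.

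Peak midpoints were assigned to 26180 genes with 45756 curated RefSeq transcripts. Overlaps needed at least 1 bp. Peaks were given the values of the authors' caller, and for a site the highest value of its peaks in a list is printed. Motifs were searched in whole peaks on both strands. Sequences came from the GRCm38 genome and RefSeq promoter windows (GRCm38.p6), which covered 8 members, not Deptor and Eif4ebp1. The code, run with Python 3.11.15, pandas 2.3.3 and pysam 0.24.0, was tested on simulated peaks and motifs. Depth was unknown, and with 1 library per group no test was made.

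All members were named, with their promoter peaks, their strongest GR and LSD1 peaks and GR peaks with a GRE, and further sites were chosen after their values were seen. Pathway genes were named by a GR peak of at least 5-fold in both conditions. The members and lists were chosen with earlier results of these data known. Alternatives were q-values of 0.01 and 1e-05, a fold of at least 5, other windows and promoters, 50% overlap, other mismatch limits and equally long lists.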

Additional observations from a re-analysis of the deposited data

Results flagged for a closer look

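The 2 methylation marks went in opposite directions over the same 10 genes, a difference that was not tested. H3K9me1 peaks in the member windows numbered 8 in fed and 20 in starved muscle, a starved over fed ratio of 2.5, and H3K9me2 peaks 95 and 0, a ratio of 0. The whole lists moved the same way, from 14178 to 38023 and from 171402 to 6624 peaks. With lists of equal length by fold enrichment the members had 8 and 11 H3K9me1 peaks and 1 and 0 H3K9me2 peaks. For both marks the fed and starved libraries carried different codes, so condition and code cannot be told apart.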

How the results depend on the processing

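No paired analysis was possible because each group had 1 library. Window definitions, the wider promoter and a 50% overlap left the counts of members within 1.5 times, as did 54 of the 90 such counts recomputed under all alternatives. Of 352 counts of peaks per gene or over all members, 158 stayed within 1.5 times, and without the gene body Deptor had 14 in place of 27 H3K9me2 peaks and Tsc2 1 in place of 2 starved LSD1 peaks. Thresholds moved the other counts of members. At a q-value of 0.01 or less, members with a peak were 5 in LSD1 starved and 1 in H3K9me1 fed (24.0% and 18.5% of all genes). Those with GR overlapped by LSD1 were 2 in starved muscle (5.47%). Promoter counts were 4 in GR fed (8.09%), 3 in LSD1 fed (10.4%) and 2 in LSD1 starved (2.99%). At 1e-05 or less, members with a peak were 5 in GR fed (15.2% of all genes) and 4 in GR starved (11.3%). There was 1 in each of LSD1 fed (1.86%), LSD1 starved (0.802%) and H3K9me1 starved (2.11%), and 0 in H3K9me1 fed (0.661%) and H3K9me2 fed (1.68%). GR overlapped by LSD1 was at 0 members in fed (0.68%) and in starved muscle (0.122%). Promoter counts were 0 in GR fed (1.32%) and LSD1 fed (0.141%) and 1 in GR starved (1.17%) and LSD1 starved (0.0688%). With peaks of 5-fold or more, members with a peak were 4 in GR fed (7.17%) and GR starved (3.37%) and 3 in LSD1 fed (5.77%). There were 2 in LSD1 starved (1.2%) and in H3K9me1 starved (7.26%), and 0 in H3K9me1 fed (2.01%) and H3K9me2 fed (2.94%). GR overlapped by LSD1 was at 2 members in fed muscle (1.02%) and at 0 in starved muscle (0.0267%). Promoter counts were 0 in GR fed (0.275%), GR starved (0.134%) and LSD1 fed (0.779%) and 1 in LSD1 starved (0.0917%). With lists of equal length, members with a peak were 6 in LSD1 starved (44.8% of all genes) and 1 in H3K9me2 fed (22.2%). With up to 2 mismatches, 4 GR peaks held a GRE in each condition. The median starved over fed ratio of GR was 0.892 with 50% overlap and 0.868 with q-values of 0.01 or less. The stricter thresholds leave fewer peaks by construction. Read depth is unknown and limits every absence, most of all in the short H3K9me2 starved list.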

Other observations

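Peaks at the members were of unequal length beside their lists. The median GR peak of the 10 genes was 268.5 bp long in fed muscle, beside 276 bp over the list, and 430.5 bp in starved muscle, beside 313 bp. LSD1 peaks of the members had a median of 263 bp in fed and 131 bp in starved muscle, beside 196 and 102 bp.

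For many of the peaks the member was not the gene with the nearest TSS. It was the nearest for 27 of 42 GR peaks in fed and 41 of 58 in starved muscle, and for 24 of 33 and 32 of 48 LSD1 peaks.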
